A study of Mus musculus with 8 samples.

Results

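The cells described here are CD4 T cells of the inflamed brain and spinal cord that held transcripts of any of the genes Egr2, Egr3, Tnfrsf9 and Nrgn. A barcode, the tag of 1 droplet and so nominally of 1 cell, was a member when these 4 genes together had at least 3 UMIs (unique molecular identifiers, each counting 1 captured RNA molecule). There were 3320 members among the 19583 kept barcodes of day 14, and 21551 barcodes were kept in the whole series. The members numbered 1229 of 10313 in the brain library and 2091 of 9270 in the spinal cord library. They were compared, library by library, with barcodes that had 0 UMIs of all 4 genes, 8080 in brain and 6166 in spinal cord. The 1004 and 1013 barcodes with 1 or 2 UMIs stood between these sets.

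All mice were of the genotype Foxp3-Cre-YFP and had experimental autoimmune encephalomyelitis (EAE), a model of multiple sclerosis, for 14 or 50 days. Cells positive for CD44 and TCRβ and negative for the Foxp3-YFP reporter and CD11b had been sorted from the spinal cord and from brain freed of its meninges, so regulatory T cells that carry the reporter were removed. RNA and the surface proteins CD69, P2X7R and CXCR6 were counted in the same droplets. There was 1 RNA library for each tissue and day, the number of mice in each is not given by the labels, and no untreated animals were among the samples, so no value below has a replicate error or a test across animals.

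When the T cell receptor (TCR) is engaged, calcium entry activates calcineurin and the NFAT factors, and the Ras and protein kinase C branches activate AP-1 and NF-kB. NFAT drives Egr2 and Egr3, zinc-finger factors that restrain further signalling, and Tnfrsf9 encodes 4-1BB, a costimulatory receptor that appears on T cells after antigen contact. Nrgn encodes neurogranin, a calmodulin-binding protein best known from neurons. Ccl1 encodes a chemokine for the receptor CCR8 and was named as a marker of these cells, but the rule does not use it.

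The label attached to these cells speaks of recent TCR stimulation and of Egr2 and Tnfrsf9. Judged by UMIs, the rule selected mainly on Nrgn: it supplied 87.0% of the members' rule UMIs in brain and 82.5% in spinal cord, and 87.1% and 84.0% of members had at least 1 Nrgn UMI. Tnfrsf9 was detected in 40.3% and 42.3% of members, Egr2 in 20.8% and 37.2%, and Egr3 in 17.1% and 24.2%. In brain 610 members held 1 of the 4 genes, 453 held 2, 148 held 3 and 18 held all 4, and in spinal cord the numbers were 822, 774, 424 and 71. The set is therefore called by its rule. TCR signalling itself was not measured, and a cell that lost its Egr2 transcripts cannot be told apart here from a cell in which they were not captured.

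Each of the 4 genes was also looked at with the rule built on the other 3, so that its own UMIs chose no barcode. Egr2 stood at 42.0 CPM, a gene's UMIs scaled to the UMIs of all genes summed over the same barcodes, in brain barcodes with at least 3 UMIs of the other 3 genes and at 1.97 CPM in barcodes with none, and in spinal cord at 97.4 against 3.25 CPM. These are 21.4-fold and 30.0-fold differences. The same ratio was 9.53-fold and 7.26-fold for Nrgn, 6.28-fold and 6.46-fold for Tnfrsf9, and 2.81-fold and 3.34-fold for Egr3. Egr3 had the lowest ratio of the 4 in both tissues. The barcodes with the other 3 genes also held more RNA, with median UMI counts between 5836 and 6399 against 3718.5 to 4713.

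The DNA upstream of the genes that lead the set is shown because NFAT, AP-1 and NF-kB are the factors that TCR signals activate. RefSeq promoter entries (GRCm38.p6) gave 1 start for Nrgn and Ccl1, 2 for Tnfrsf9 and 5 for Egr2. The Egr2 windows are not shown. No entry was at hand for Egr3. Each line below is the 250 bases before a start, read 5′ to 3′ on the gene's strand: Nrgn at chr9:37552746-37552995 (minus strand), Ccl1 at chr11:82179813-82180062 (minus strand), and the second listed start of Tnfrsf9 at chr4:150927749-150927998 (plus strand). Capitals mark matches on either strand to any of 5 motifs, which were TGGAAA for NFAT, TGANTCA for AP-1, the NF-kB motif (GGG, any 2 bases, TTTCC), GCGTGGGCG for EGR and TGACGTCA for the cAMP response element.
Nrgn: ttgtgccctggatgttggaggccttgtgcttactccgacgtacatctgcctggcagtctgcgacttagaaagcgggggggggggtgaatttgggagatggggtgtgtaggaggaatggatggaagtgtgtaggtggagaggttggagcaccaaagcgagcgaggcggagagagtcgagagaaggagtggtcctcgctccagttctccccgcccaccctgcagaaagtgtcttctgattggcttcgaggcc
Ccl1: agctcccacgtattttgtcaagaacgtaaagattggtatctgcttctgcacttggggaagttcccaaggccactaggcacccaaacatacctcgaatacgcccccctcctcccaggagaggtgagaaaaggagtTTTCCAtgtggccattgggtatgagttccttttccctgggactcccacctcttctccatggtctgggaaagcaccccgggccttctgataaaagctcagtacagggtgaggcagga
Tnfrsf9: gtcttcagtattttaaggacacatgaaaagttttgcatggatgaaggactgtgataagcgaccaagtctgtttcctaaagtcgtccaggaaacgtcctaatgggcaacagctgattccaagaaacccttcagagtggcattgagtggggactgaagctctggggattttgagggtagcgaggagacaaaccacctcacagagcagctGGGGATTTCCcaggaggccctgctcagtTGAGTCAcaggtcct

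The Tnfrsf9 window held the NF-kB letters as GGGGATTTCC at 43 to 34 bases before the start and the AP-1 letters as TGAGTCA at 15 to 9 bases before it. The first listed Tnfrsf9 start, at chr4:150919905-150920154 and not shown, held only the NFAT letters, 221 to 216 bases before it. The Ccl1 window held the NFAT letters on the opposite strand at 116 to 111 bases before the start, and the Nrgn window held none of the 5 motifs. The window of the chemokine gene Xcl1, not shown, also held none. Over all 32851 windows of the table, 18.6% held the NFAT letters, 6.75% the AP-1 letters, 1.41% the NF-kB letters, 0.536% the EGR letters and 1.55% the cAMP response element. Of the 186 genes described below as higher in members of both tissues, 144 had an entry, with 193 starts. The NFAT letters were in 17.1% of those starts, the AP-1 letters in 4.15% and the NF-kB letters in 2.59%. For all 2469 genes compared at 50 CPM or more the shares were 14.8%, 4.15% and 1.76%. For the 110 genes lower in both tissues they were 18%, 8.2% and 1.64%. A match is a run of letters in a window and not a bound site.

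Members held more RNA than the barcodes without the 4 genes. Their median UMI count was 5858 against 3711 in brain and 6117 against 4581 in spinal cord, and the median number of genes was 1831 against 1278 and 2025 against 1624. The median mitochondrial share was similar, at 3.0% against 2.91% and 2.83% against 2.70%. Because a rule that needs 3 UMIs favours deep barcodes, each ratio below was also computed against 0-UMI barcodes weighted to the members' distribution of total UMIs, called depth-weighted. The part that depth plays in the remaining differences was not tested. Brain and spinal cord of day 14 shared 33 barcode sequences, of which 5 were members in brain and 7 in spinal cord, none in both.

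The members were T cells by their transcripts. The summed level of 15 T cell identity genes was 10155 CPM in brain members and 8914 CPM in the 0-UMI barcodes, and 10414 against 8682 CPM in spinal cord. Cd4 was at 193 against 135 CPM and at 307 against 195 CPM. Markers of other cells the sort could hold differed by cell type. The 6 B cell genes were lower in members, with sums of 15.3 against 63.1 CPM and 7.34 against 38.6 CPM, and Ms4a1 had 0 UMIs in members of both tissues. The 10 glial and neuronal genes, which matter because neurons contain Nrgn, summed to 90.6 against 90.9 CPM in brain and to 128 against 138 CPM in spinal cord. Nearly all of that was Mbp, a myelin gene, and Pecam1, which leukocytes also carry, and the neuronal genes Snap25 and Syt1 had 0 UMIs in members. The 15 myeloid and antigen-presenting genes summed to 322 against 369 CPM and 370.5 against 485 CPM, although 5 of the 13 compared were higher and 1 lower in each tissue, with median log2 ratios of 0.32 and 0.53, and their part in the results was not tested. These sums include Ccr2, a chemokine receptor given below that was lower in members. Without Ccr2 the sums were higher in members of both tissues. The microglial sums were 36.2 against 26.3 and 43.2 against 36.2 CPM, with Sall1 and Tmem119 at 0 UMIs in members. The sums for CD8, gamma-delta and natural killer cells were 20.5 against 17.7 and 24.3 against 17.3 CPM.

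A gene was compared where members and 0-UMI barcodes together had at least 10 UMIs of it, and it is called higher or lower where the ratio of CPM was at least 1.5-fold. This is a rule of size and not a test, because the rule that chose the members used the same cells. In brain 2054 of 12602 genes (16.3%) were higher and 1616 (12.8%) lower, and in spinal cord 1835 of 12788 (14.3%) were higher and 1503 (11.8%) lower. In both tissues alike, 1226 of 12351 genes (9.93%) were higher and 869 (7.04%) lower. Among the 2469 genes that reached 50 CPM on either side in both libraries, 186 were higher in both, 110 were lower in both and none went past 1.5-fold in opposite directions. The median log2 ratio over all genes was 0.07 in brain and 0.04 in spinal cord.

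**Figure D1:**
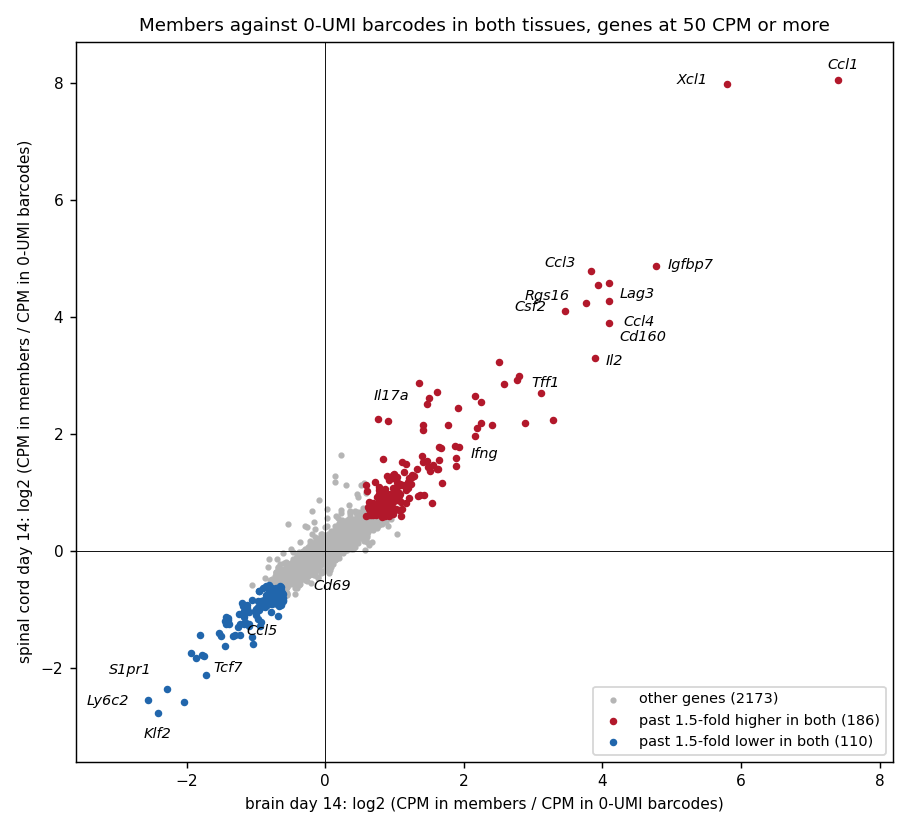
Each point is 1 of the 2469 genes at 50 CPM or more in both day 14 libraries, with the log2 ratio of members to 0-UMI barcodes in brain on the horizontal axis and in spinal cord on the vertical axis. Red points (186) are at least 1.5-fold higher in both and blue points (110) at least 1.5-fold lower in both; Ccl1 and Xcl1 lie farthest toward the upper right, and Klf2, Ly6c2 and S1pr1 toward the lower left.

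Chemokine genes were the farthest apart. Ccl1, which the rule did not use, was at 1864 CPM (95% Poisson interval 1835 to 1894) in brain members and 11.02 CPM in the 0-UMI barcodes, and at 2249.8 CPM (2225 to 2275) against 8.54 CPM in spinal cord. The log2 ratios were 7.402 (95% interval 7.25 to 7.56) and 8.04 (7.86 to 8.22), and all intervals given cover counting error only. Ccl1 was nevertheless detected in a minority of members, 42.0% in brain and 36.9% in spinal cord, and single members held up to 735 and 487 Ccl1 UMIs. For thinned values, barcodes with fewer than 2000 UMIs were left out. These were 45 members and 1059 0-UMI barcodes in brain and 22 and 108 in spinal cord. With the other barcodes thinned to 2000 UMIs, 31.4% of members and 1.03% of 0-UMI barcodes had a Ccl1 UMI in brain. In spinal cord these shares were 29.4% and 1.11%. The share in 0-UMI barcodes may include UMIs from free RNA, which was not estimated.

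Xcl1, a chemokine that attracts cross-presenting dendritic cells, was at 306 against 5.49 CPM in brain and 299 against 1.19 CPM in spinal cord. It was found in 7.57% and 6.36% of members, and the 2 richest barcodes held 27.3% and 23.0% of its UMIs. Ccl3 and Ccl4, inflammatory chemokines whose sequences are closely related, were at 118 against 8.23 and 419.6 against 24.7 CPM in brain and at 98.1 against 3.56 and 272 against 14.1 CPM in spinal cord. The 2 richest members held 40.5% of the Ccl3 UMIs and 33.9% of the Ccl4 UMIs in brain. Ccl5, a chemokine of memory and effector T cells, ran the other way, at 640 against 1742 CPM and 483 against 1106 CPM. Depth-weighted, the log2 ratio of Ccl1 was 8.06 in brain, that of Ccl5 in brain was -0.84 in place of -1.45, and those of Ccl3 and Ccl4 in spinal cord were 5.41 and 5.28 in place of 4.78 and 4.27. Of the 7 chemokine ligands compared in both tissues, 5 were higher and 2 lower.

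Effector cytokines were mostly higher: 16 of the 18 compared in both tissues were higher, 1 was lower, and the median log2 ratio was 1.94 in brain and 2.19 in spinal cord (1.93 and 2.10 depth-weighted). Csf2, encoding GM-CSF, a cytokine that drives tissue damage in EAE, was at 149.96 against 13.6 CPM in brain and 158 against 9.27 CPM in spinal cord, log2 ratios of 3.46 (3.31 to 3.62) and 4.09 (3.91 to 4.28). Ifng, the Th1 cytokine, was at 985 against 257 CPM and 788 against 231 CPM. Il17a, the Th17 cytokine, was at 318 against 115 CPM and 196 against 34.3 CPM, and Tnf at 153 against 57.9 CPM and 255 against 60.9 CPM. The ratios of Csf2, Il17a and Tnf were larger in spinal cord and that of Ifng was larger in brain, and these differences between tissues were not tested.

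Lta (lymphotoxin alpha) was at 142 against 19.2 CPM and 186 against 40.8 CPM, and Tgfb1 at 298 against 97.9 CPM and 327 against 123 CPM. Penk, the precursor of enkephalin peptides, was at 61.7 against 4.95 CPM and 36.9 against 1.42 CPM, and Spp1, encoding osteopontin, at 16.4 against 0.691 CPM and 15.2 against 0.495 CPM. Against depth-weighted barcodes the spinal cord log2 ratio of Penk was 3.45 in place of 4.70 and that of Spp1 3.86 in place of 4.94. Il10, which limits inflammation, was low on both sides, at 0.476 against 3.69 CPM and 0.490 against 1.19 CPM, from 4 and 7 UMIs in members.

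Il2, the T cell growth factor, rested on few cells. Its level was 129 against 8.71 CPM in brain and 64.8 against 6.60 CPM in spinal cord, but 46.0% and 48.9% of the members' Il2 UMIs came from the 2 richest barcodes. Thinned to 2000 UMIs, 2.79% of brain members and 1.57% of 0-UMI barcodes held an Il2 UMI, and in spinal cord 1.21% and 1.22%. Il22 behaved alike: its CPM was 120.1 against 60.4 and 56.6 against 22.7, and the thinned shares were 3.63% against 3.65% and 2.56% against 1.82%. Il17f in brain (60.4 against 7.09 CPM) came to 97.4% from 2 barcodes. No difference in how many cells made these 3 cytokines can be read from their sums.

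The overlap of Csf2 and Ccl1 was partial, and above the share of all members holding either gene. The overlaps were counted without thinning, and the part that depth plays in them was not tested. In brain 516 members held Ccl1 and 297 held Csf2, and 169 held both, which is 32.8% of the former and 56.9% of the latter, beside 24.2% of all members with Csf2 and 42.0% with Ccl1. In spinal cord 246 of 771 Ccl1 members and of 484 Csf2 members held both, 31.9% and 50.8%, beside 23.1% and 36.9% of all members. Of the 93 and 133 members with Xcl1, 80.6% and 84.2% also held Ccl1. Il17a and Xcl1 were held together by 6 and 9 members, 6.45% and 6.77% of those with Xcl1. Beside this, 233 of all 1229 brain members and 315 of all 2091 spinal cord members held Il17a. None of Il2, Ifng, Csf2, Il17a and Il22 was detected in 19.5% of brain members and 24.7% of spinal cord members.

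Transcription factors that follow TCR signals were higher in part. Of 19 compared, 10 were higher in both tissues and 1 lower, with median log2 ratios of 0.76 and 1.13 (0.56 and 1.02 depth-weighted). Nr4a3, an orphan nuclear receptor induced by NFAT, was at 65.1 against 25.5 CPM in brain and 92.0 against 12.6 CPM in spinal cord. Nr4a1, its relative, was at 152 against 89.9 CPM and 111 against 23.2 CPM. Nab2, a corepressor that binds EGR proteins, was at 27.2 against 9.61 CPM and 44.6 against 12.8 CPM. Rel, an NF-kB subunit, was at 190 against 85.3 CPM and 162 against 57.7 CPM, and Nfatc1, the NFAT gene induced by NFAT itself, at 90.3 against 42.1 CPM and 140 against 49.0 CPM. The Nr4a genes had larger ratios in spinal cord, where the 0-UMI barcodes held less of them.

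Other early genes differed less or the other way. Egr1 was at 116 against 99.4 CPM in brain and 138 against 88.0 CPM in spinal cord, and Myc at 13.2 against 17.3 and 14.5 against 17.5 CPM. Of 20 immediate early and heat shock genes, which tissue dissociation also induces, 2 were higher and 3 lower in both tissues, with median log2 ratios of -0.41 and -0.15. Depth-weighted these were -0.20 and 0.080, so the sign changed in spinal cord, as it did for Fos there (-0.20 to 0.14). Fos was at 342 against 503 CPM and 219 against 251 CPM and Jun at 270 against 448 CPM and 327 against 441 CPM. Klf6 was lower, at 182 against 410 CPM and 126 against 255 CPM, while Gadd45b, a stress-response gene that NF-kB induces, was higher, at 629 against 318 CPM and 266 against 109 CPM. Of 26 MYC targets and ribosome biogenesis genes, 1 was higher and none lower in both, the log2 medians being 0.21 and 0.08.

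Receptors and ligands of the cell surface followed. Of 19 that TCR signals are known to induce, 10 were higher in both tissues and 1 lower (medians 0.66 and 0.72). Tnfsf11, which encodes RANKL, was at 178 against 31.4 CPM in brain and 248 against 26.6 CPM in spinal cord. Crtam, an adhesion receptor, was at 29.3 against 2.37 CPM and 37.6 against 1.88 CPM, and Tnfsf14 (LIGHT) at 43.4 against 9.01 and 68.1 against 12.5 CPM. Tnfrsf4 (OX40) was at 352 against 152 CPM and 341 against 144 CPM. Ly6a was the lower gene, at 695 against 1359 CPM and 674 against 1502 CPM. Icos, a costimulatory receptor, was at 240 against 324 CPM and 257 against 291 CPM.

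The inhibitory receptors split. Lag3, which binds MHC class II and damps CD4 responses, was at 168 against 9.88 CPM in brain and 207 against 8.68 CPM in spinal cord, log2 ratios of 4.09 (3.91 to 4.26) and 4.57 (4.39 to 4.76). Thinned to 2000 UMIs, 25.3% of brain members and 1.69% of 0-UMI barcodes held a Lag3 UMI, and 29.5% and 1.47% in spinal cord. Cd160 was at 219 against 12.9 CPM and 212 against 14.2 CPM, Havcr2 (TIM-3) at 48.0 against 8.59 CPM and 112 against 14.5 CPM, and Pdcd1 (PD-1) at 67.5 against 19.8 CPM and 104 against 23.3 CPM. Ctla4 and Tigit differed by less than 1.5-fold, Ctla4 at 179 against 205 CPM and 81.2 against 66.3 CPM and Tigit at 7.73 against 8.5 CPM and 13.1 against 10.98 CPM. Of 11 inhibitory receptors and Tox genes compared, 5 were higher in both and none lower. The list's brain median of 0.68 lay between these groups and changed sign under 5 of the other settings given at the end.

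Of 22 genes of TCR and calcium feedback, 8 were higher in both tissues and none lower in both (medians 0.50 and 0.54). Dgka was lower in brain alone, with log2 ratios of -0.70 in brain (-0.40 depth-weighted) and -0.14 in spinal cord. Ubash3b, a phosphatase that acts on TCR-proximal kinases, was at 34.5 against 10.5 CPM in brain and 58.5 against 12.2 CPM in spinal cord. Dusp4, a phosphatase of MAP kinases, was at 34.1 against 10.4 and 34.8 against 7.06 CPM, and Dgkz, which removes diacylglycerol, at 92.4 against 45.0 and 116 against 54.1 CPM. Spry1, a brake on Ras signals, and Tagap had log2 ratios of 0.38 and 0.44 in brain (0.96 and 0.63 depth-weighted) and of 2.37 and 2.48 in spinal cord, with Spry1 at 11.5 against 8.86 CPM in brain and 18.2 against 3.53 CPM in spinal cord, and Tagap at 47.9 against 35.4 and 66.2 against 11.9 CPM. Of 19 genes of NF-kB and its feedback, 5 were higher in both and none lower. Bcl2a1d, a survival gene with near-identical copies that counting may split, was at 611 against 197 CPM and 517 against 195 CPM. Tnfaip3, the NF-kB inhibitor A20, was at 310 against 506 CPM and 176 against 226 CPM.

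The 15 genes with the largest ratios in both tissues included several outside the pathways above. Igfbp7, a secreted protein that binds insulin-like growth factors, was at 245 against 8.92 CPM in brain and 305 against 10.4 CPM in spinal cord, and with 28.0% and 30.8% of thinned members against 1.42% and 1.5% of 0-UMI barcodes its detection was near that of Lag3. Rgs16, which shortens G protein signals from chemokine receptors, was at 352 against 26.0 CPM and 267 against 14.3 CPM. Pacsin1, an endocytosis adaptor known from neurons, was at 64.6 against 4.23 CPM and 66.6 against 2.87 CPM. Fhl2, a LIM-domain cofactor, was at 63.0 against 9.10 CPM and 71.4 against 9.01 CPM. Tff1 was at 157 against 22.9 CPM and 112 against 14.8 CPM, Lgals7 at 81.9 against 9.46 CPM and 87.2 against 13.5 CPM, and the transcript Gm45716 at 102 against 17.1 CPM and 85.7 against 11.9 CPM. Against depth-weighted barcodes the log2 ratio of Tff1 was 1.98 in brain and 1.57 in spinal cord in place of 2.77 and 2.92, that of Lgals7 in spinal cord was 2.08 in place of 2.69, and that of Igfbp7 was 4.37 and 4.38 in place of 4.78 and 4.87.

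Genes of exit from tissue were lower in members. Of 14 egress and recirculation genes, 12 were lower in both tissues and none higher, with median log2 ratios of -1.84 and -1.63 (-1.42 and -1.28 depth-weighted). Klf2, the factor that maintains S1pr1, was at 75.4 against 404 CPM in brain and 28.0 against 189.7 CPM in spinal cord. S1pr1, the receptor that guides T cells out along sphingosine-1-phosphate, was at 20.7 against 101 CPM and 23.8 against 121 CPM. Tcf7, encoding TCF-1, was at 44.7 against 164 CPM and 42.3 against 150 CPM, and Il7r, the interleukin 7 receptor, at 161 against 561 CPM and 242 against 651 CPM. Ly6c2, whose reads can be shared with its close copy Ly6c1, was at 46.9 against 275 CPM and 36.6 against 214 CPM. Thinned to 2000 UMIs, a Klf2 UMI was found in 10.1% of brain members against 38.3% of 0-UMI barcodes and in 4.59% against 26.6% in spinal cord, so these genes were lower at equal depth too.

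Interferon-response genes were lower in 19 of 22 cases and higher in none, with median log2 ratios of -1.08 and -1.23. Ifit3 was at 5.95 against 45.6 CPM in brain and 1.96 against 21.3 CPM in spinal cord, Isg15 at 58.2 against 119.95 CPM and 19.7 against 59.3 CPM, and Irf7, the factor that amplifies the response, at 36.9 against 88.6 CPM and 21.9 against 53.8 CPM. Ifi213 and Ifi206, members of a family of near-identical genes, were also among the 10 with the largest negative ratios. The remaining genes of those 10 were Socs3, an inhibitor of cytokine signalling (33.5 against 110.4 CPM and 13.1 against 56.9 CPM), Slamf6, Rasgrp2 and Gm2682. Rasgrp2, which activates Rap1 and integrins, was at 22.6 against 77.3 CPM and 19.9 against 67.8 CPM.

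Among chemokine receptors, 3 were higher and 5 lower in both tissues. The inflammatory receptors were lower, Ccr2 at 72.7 against 182 CPM in brain and 100.3 against 274 CPM in spinal cord, and Cxcr3 at 65.3 against 171 and 85.2 against 202 CPM. Ccr8, the receptor of CCL1, was higher but low in level, at 7.73 against 2.85 CPM and 11.3 against 4.68 CPM. Cx3cr1 was at 10.9 against 1.62 CPM and 16.4 against 3.33 CPM.

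Lineage lists were mixed. Il1r1, the interleukin 1 receptor of Th17 cells, was at 52.6 against 22.0 CPM in brain and 96.8 against 39.3 CPM in spinal cord. In all, 5 of 12 Th17 genes were higher and none lower. Of 12 Th1 genes 2 were higher and 5 lower, with Tbx21 at 20.3 against 13.9 CPM and 27.3 against 19.7 CPM. Of 10 Tfh genes 6 were higher, among them Bcl6 (18.7 against 5.10 CPM and 28.3 against 7.49 CPM) and Il21 (9.99 against 2.34 and 11.3 against 1.91 CPM, its brain log2 ratio of 2.09 being 1.39 depth-weighted), and 2 were lower. Foxp3 had 0 UMIs in members of both tissues, which allows up to 0.357 CPM in brain and 0.210 CPM in spinal cord (3 UMIs). Of 5 regulatory T cell genes, 2 were higher and 2 lower.

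Cytotoxic genes were mixed, with 4 of 13 higher and 3 lower. Nkg7, which takes part in granule release, was at 1170.3 against 539 CPM in brain and 1219.7 against 560.3 CPM in spinal cord. Gzmb was lower, at 25.8 against 63.3 CPM and 9.86 against 41.8 CPM, while Gzma was at 297 against 30.4 CPM and 133 against 28.3 CPM, with 26.8% and 30.4% of its UMIs in 2 barcodes and a spinal cord log2 ratio of 2.23 that was 1.20 depth-weighted. Of 11 survival genes, 2 were higher and 3 lower in both tissues, with median log2 ratios of 0.17 and 0.11. The higher ones were the pro-apoptotic Bcl2l11 (BIM), at 88.4 against 23.3 CPM and 116 against 21.4 CPM, and Bcl2l1, at 24.1 against 14.1 CPM and 23.0 against 14.2 CPM. Bcl2 was among the lower ones, at 52.7 against 119 CPM and 75.5 against 160 CPM.

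Glycolysis genes were higher in 5 of 17 cases and lower in none. The lactate exporter Slc16a3 had log2 ratios of 1.47 (0.74 depth-weighted) and 1.44, Tpi1 of 1.17 and 1.05 and Pgam1 of 1.07 and 1.14, and Pgk1 was at 412 against 213 CPM in brain and 429 against 241 CPM in spinal cord. Ldha was at 688 against 510 CPM and 831 against 627 CPM and Slc2a1 at 12.7 against 13.0 and 13.7 against 13.5 CPM.

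Proliferation genes depended on depth. Of 26, 13 were higher in both tissues and none lower, with median log2 ratios of 0.74 and 0.63, but against depth-weighted barcodes the medians were -0.20 and -0.27. Mki67 was at 42.5 against 26.3 CPM in brain and 52.5 against 34.8 CPM in spinal cord, with depth-weighted log2 ratios of -0.42 and -0.49. The share of barcodes with at least 2 UMIs of 8 mitotic genes was 19.0% of members against 6.71% of 0-UMI barcodes in brain and 14.3% against 7.09% in spinal cord. Thinned to 2000 UMIs it was 9.54% against 3.95% and 4.64% against 2.74%. At like depth the sums of these genes were thus lower in members and the thinned share was higher.

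**Figure D2:**
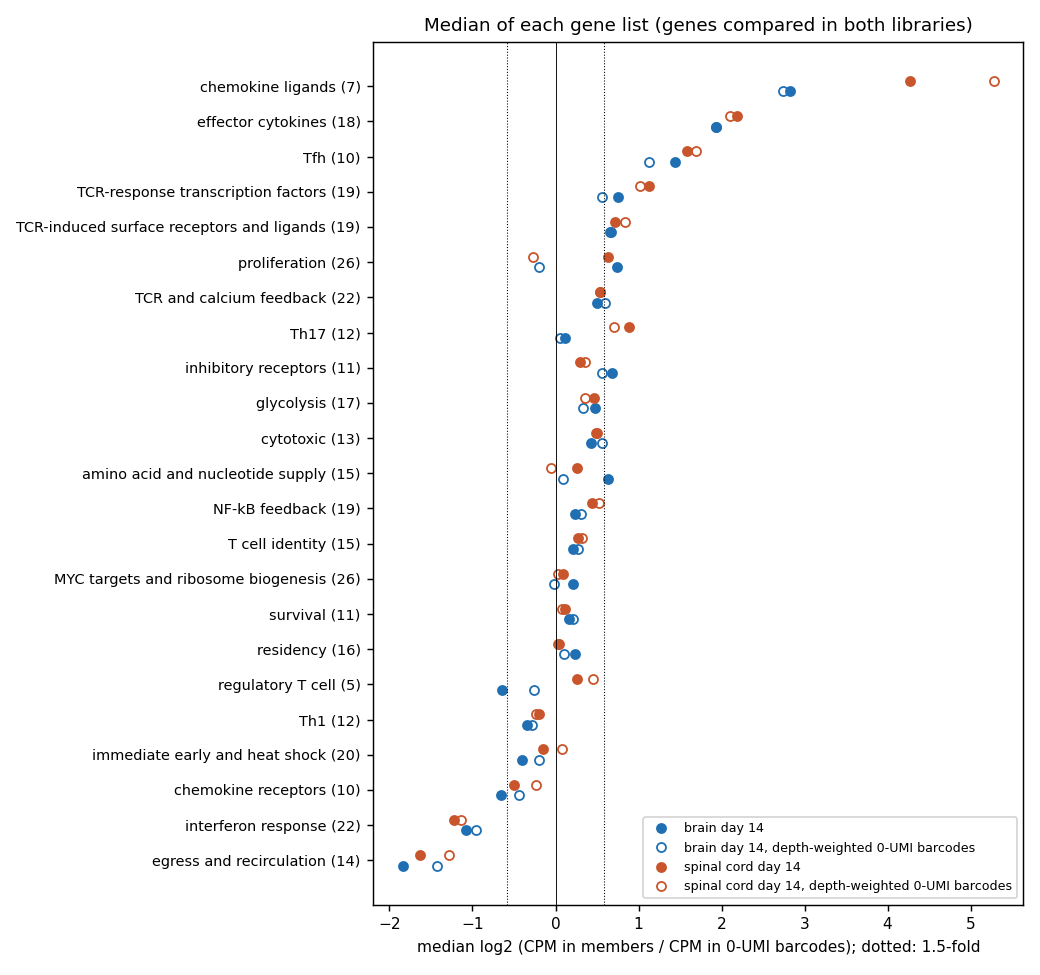
Median log2 ratio of members to 0-UMI barcodes for each gene list in brain (blue) and spinal cord (orange), filled for all 0-UMI barcodes and open for 0-UMI barcodes weighted to the members' depth, with the number of genes compared in both libraries in brackets. Each median covers the genes compared in its own library, which for some lists are more than the number in brackets. Chemokine ligands and effector cytokines lie to the right of the dotted 1.5-fold line and egress and interferon-response genes to the left under both reckonings, and the open proliferation points lie on the other side of 0 from the filled ones.

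Levels were then read by the number of rule UMIs, as a description of a scale on which the cells were chosen. Ccl1 stood at 11.02 CPM at 0 UMIs in brain, 168 at 1, 832 at 2, 986 at 3 to 4, 1371 at 5 to 9 and 2462 at 10 or more, and in spinal cord at 8.54, 148, 196, 999.5, 1668 and 2997 CPM. Lag3 climbed in the same order from 9.88 to 238 CPM and from 8.68 to 287 CPM. Csf2 and Ifng did not keep climbing: Csf2 in brain was at 222 CPM at 3 to 4 UMIs and 123 CPM at 10 or more, and Ifng at 1163 and 858 CPM. Klf2 in spinal cord went down through 189.7, 86.4, 66.2, 52.6, 28.5 and 18.6 CPM. Barcodes with 1 or 2 UMIs thus lay between members and 0-UMI barcodes for Ccl1, Lag3 and Klf2.

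Just outside the threshold, 289 brain barcodes had 2 rule UMIs, a median depth of 4920 UMIs and 832 CPM of Ccl1, and just inside it 173 had 3 UMIs, a median depth of 5244 and 1134 CPM. The 121 brain barcodes with 4 UMIs had 758 CPM of Ccl1, less than those with 2, so the rise was not even. In spinal cord 345 barcodes with 2 UMIs had a median depth of 5379 and 196 CPM of Ccl1, and 258 with 3 UMIs had 5497 and 655 CPM. The 197 with 4 UMIs there had 1431 CPM.

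**Figure D3:**
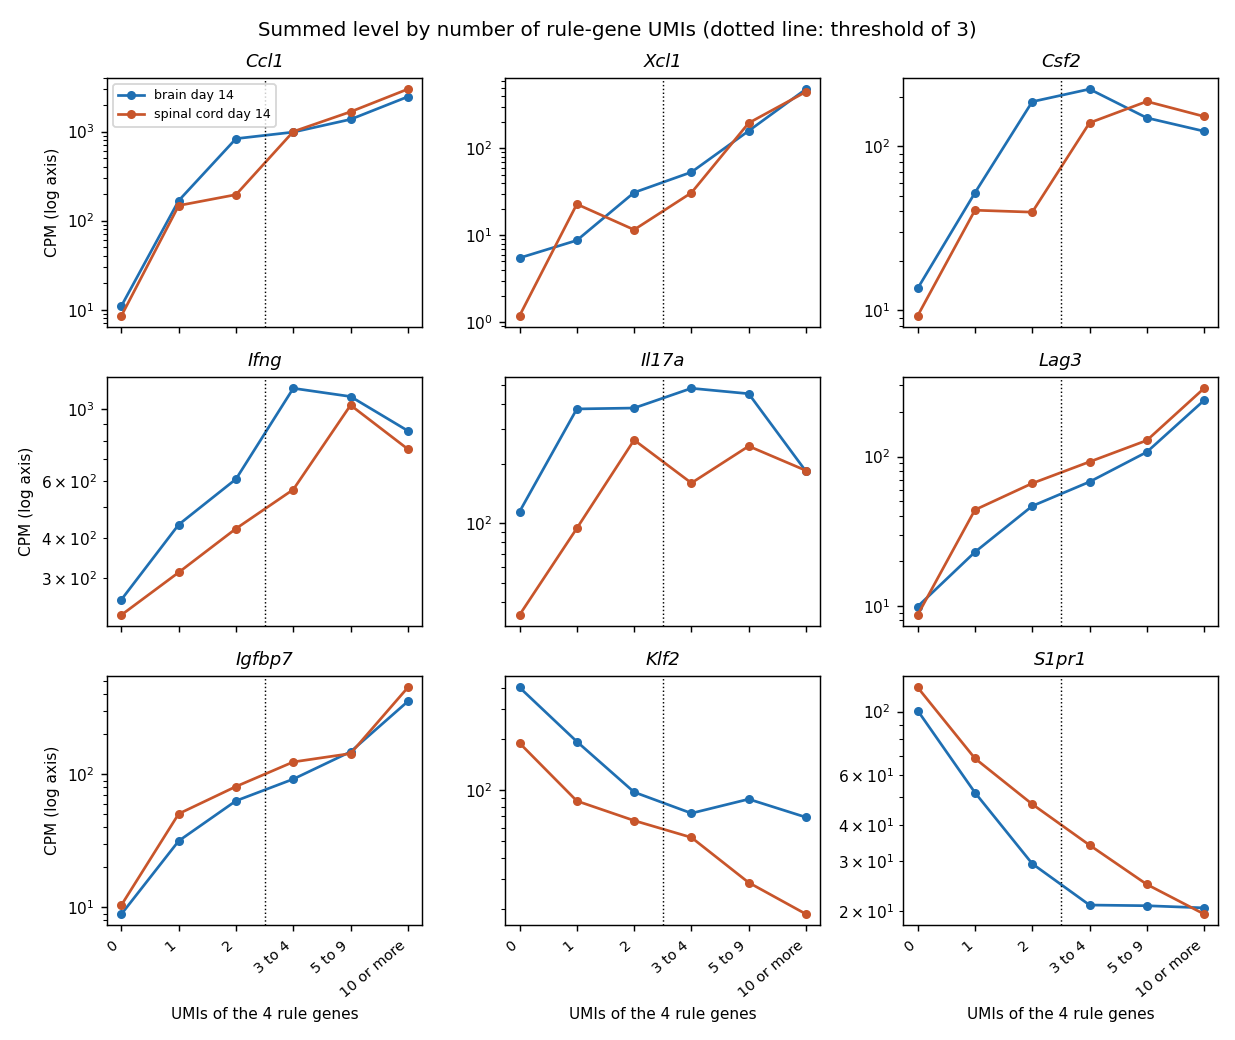
CPM (log axis) of 9 genes in barcodes with 0, 1, 2, 3 to 4, 5 to 9 and 10 or more UMIs of the 4 rule genes, in brain (blue) and spinal cord (orange) of day 14; the dotted line is the threshold of 3. Ccl1, Lag3 and Igfbp7 are highest at 10 or more UMIs, Csf2 and Ifng in brain are highest at 3 to 4, and Klf2 and S1pr1 are lowest in the members.

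Members differed among themselves by which of the rule genes they held. Nrgn alone was held by 512 brain members and 677 spinal cord members, Nrgn with another of the genes by 559 and 1080, and no Nrgn by 158 and 334. The median depth of these groups was 5392, 6686 and 5499.5 UMIs in brain and 5738, 6513 and 5620.5 in spinal cord. The median log2 ratio of effector cytokines over the 0-UMI barcodes was 1.10 in brain and 0.99 in spinal cord for Nrgn alone, 1.63 and 1.98 for Nrgn with another gene, and 3.07 and 3.27 for members without Nrgn. For NF-kB feedback the values were -0.17 and 0.04, 0.01 and 0.51, and 1.04 and 0.86.

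Cytokine transcripts lay mostly outside the Nrgn-alone members. Ifng was at 479 and 349.9 CPM in brain and spinal cord members with Nrgn alone, at 956 and 655 CPM with another gene, and at 2741 and 2192 CPM without Nrgn. Csf2 followed the same order, at 71.9 and 25.5, 149 and 151, and 407 and 462 CPM. Il2 was at 6.59 and 0.683 CPM, 26.9 and 53.4 CPM, and 961 and 240.2 CPM, and Il22 at 45.2 and 15.3, 45.1 and 20.9, and 684 and 274 CPM. Il22 in Nrgn-holding members was thus at or below its level in the 0-UMI barcodes, which was 60.4 and 22.7 CPM. Over all groups Il2 was held by 53 brain and 41 spinal cord members and Il22 by 80 and 109, so their levels by group rest on few cells. Nr4a3 was at 38.9 and 24.6 CPM with Nrgn alone and at 164 and 252 CPM without Nrgn.

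Another group of genes followed Nrgn. Lag3 was at 159 and 203 CPM with Nrgn alone, 204 and 253 CPM with another gene, and 43.5 and 44.1 CPM without Nrgn. Igfbp7 was at 238 and 271, 297 and 388, and 43.5 and 72.5 CPM, and Tff1 at 181 and 155, 163 and 111, and 49.6 and 26.1 CPM. Ccl1 was low with Nrgn alone, at 766 and 295 CPM, and higher in both other groups, at 2519.8 and 3105 CPM and 2595 and 3161 CPM. Crtam was highest where Nrgn went with another gene, at 49.6 and 59.5 CPM against 7.53 and 9.11 CPM with Nrgn alone and 12.2 and 16.1 CPM without Nrgn. Klf2 was below its 0-UMI level of 404 and 189.7 CPM in all 3 groups, between 60.8 and 89.5 CPM in brain and between 23.5 and 50.2 CPM in spinal cord. The groups are parts of the rule, so these differences describe the members and have no test.

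**Figure D4:**
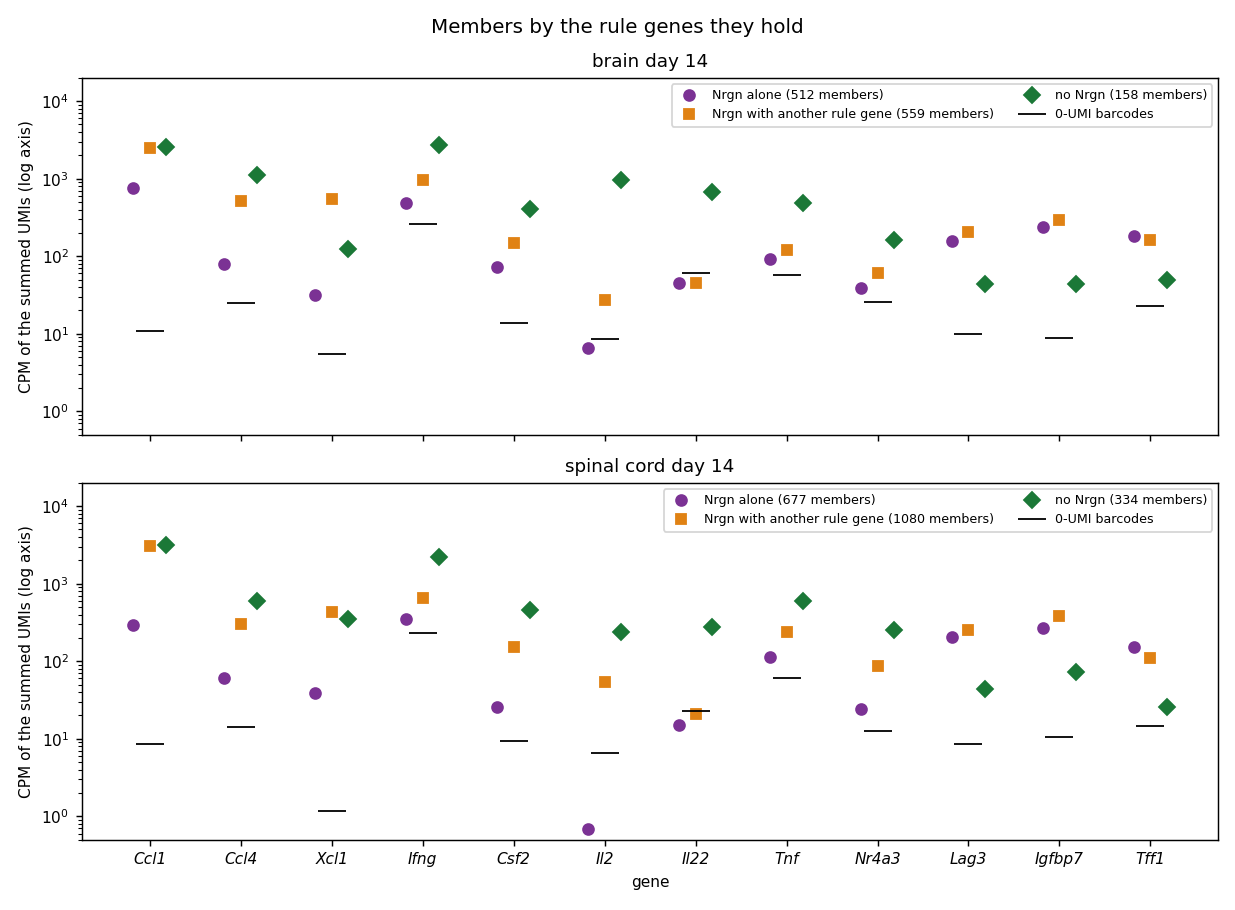
CPM (log axis) of 12 genes in members with Nrgn alone (purple circles), Nrgn with another rule gene (orange squares) and no Nrgn (green diamonds), and in 0-UMI barcodes (black bars), for brain (top) and spinal cord (bottom) of day 14. Ifng, Csf2, Il2, Il22, Tnf and Nr4a3 are highest in members without Nrgn, and Lag3, Igfbp7 and Tff1 are lowest there among the members. Il2 and Il22 rest on few members.

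Surface protein was counted apart from the transcripts that chose the members. CD69, which T cells show within hours of TCR engagement and which holds them in tissue, had a median of 8 antibody UMIs per barcode (quartiles 4 and 17) in brain members and 4 (2 and 7) in 0-UMI barcodes, and of 19 (9 and 33) against 8 (5 and 16) in spinal cord. Within 4 bands cut at the quartiles of the members' RNA UMIs, from low to high, the median CD69 count was 5, 8, 9 and 13 in brain members against 3, 4, 6 and 7 in 0-UMI barcodes, and 17, 17, 18 and 22 against 6, 9, 11 and 17 in spinal cord. CD69 was thus higher in each band of both tissues, and against depth-weighted barcodes the ratio of medians was 1.60 in brain and 1.90 in spinal cord. The quartile ranges of members and 0-UMI barcodes overlapped in each of these bands. The Cd69 transcript did not follow, at 555 against 698 CPM and 360 against 440 CPM, with log2 ratios of -0.33 (-0.38 to -0.29) and -0.29 (-0.34 to -0.24).

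P2X7R, the ATP receptor, had medians of 6 against 5 in brain and 11 against 8 in spinal cord, and CXCR6, the receptor of CXCL16, of 15 against 13 and 23 against 21. The depth-weighted ratio of medians was 1 and 0.917 for P2X7R and 0.714 and 0.885 for CXCR6. Within the 4 bands, P2X7R was 4, 6, 6 and 11 in brain members against 4, 5, 7 and 11, and 8, 9, 11 and 23 against 6, 8, 12 and 22 in spinal cord, so its direction varied between bands. CXCR6 was 8, 15, 17 and 23 in brain members against 8, 21, 25 and 32, and 20, 22, 22 and 32 against 18, 24, 27 and 40 in spinal cord, lower in the upper 3 bands of both tissues and not in the lowest. The P2rx7 transcript was at 31.5 against 25.5 CPM and 52.8 against 49.5 CPM, and Cxcr6 at 345 against 338 CPM and 530 against 585 CPM.

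**Figure D5:**
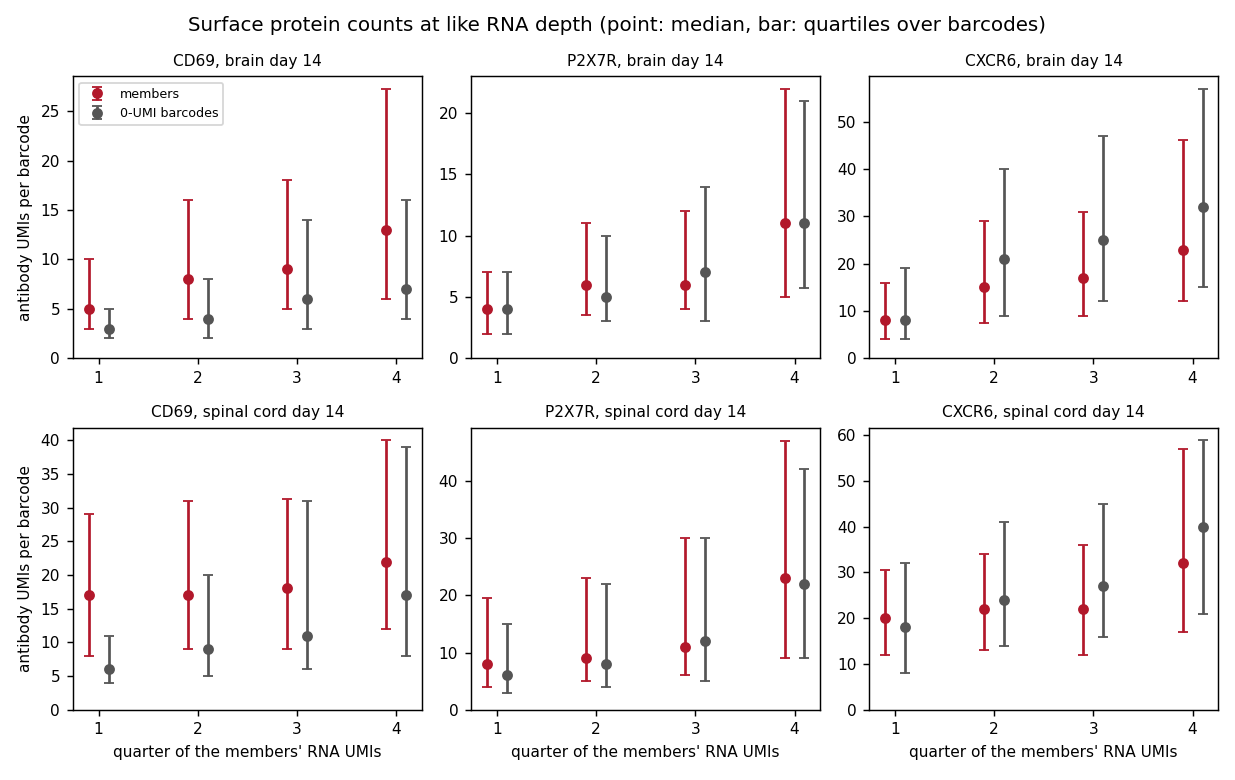
Antibody UMIs per barcode for CD69, P2X7R and CXCR6 in members (red) and 0-UMI barcodes (grey) within 4 bands of the members' RNA UMIs, in brain (top) and spinal cord (bottom) of day 14; points are medians and bars the quartiles over barcodes. The CD69 medians of members lie above those of 0-UMI barcodes in all 4 bands of both tissues, and the CXCR6 medians lie below them in the upper 3 bands of both tissues.

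Brain and spinal cord members were also set side by side. After thinning to 2000 UMIs, 7.45% of brain barcodes (95% Clopper-Pearson interval 6.92 to 8.01) and 13.5% of spinal cord barcodes (12.8 to 14.2) passed the rule, and unthinned 11.9% and 22.6%. Thinning left out 1163 shallower barcodes in brain and 142 in spinal cord. With 1 library a tissue, a difference between tissues and one between libraries cannot be told apart. Of the rule genes, Nrgn was alike in members of the 2 tissues, at 1755 CPM in brain and 1878 CPM in spinal cord, and Egr2 was at 47.0 against 104 CPM. Xcl1 was alike at 306 and 299 CPM.

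The median log2 ratio of spinal cord to brain among members was 0.18 over 11966 genes, and ratios are given relative to it. By that measure 1291 of the 11962 genes outside the rule (10.8%) were 1.5-fold higher in spinal cord and 1076 (9.00%) lower. Among genes at 50 CPM or more in either tissue, the 5 higher ones whose interval lay farthest from 0 were Gm42418, a transcript that overlaps ribosomal RNA (1.47), Kcnq1ot1 (1.42), Apol7e (1.30), Gm36723 (1.16) and Hist1h1e (1.05), and the 5 lower were Il17f (-3.74), Hist1h2bc (-3.17), Ube2c (-2.01), Isg15 (-1.74) and Klf2 (-1.61). In 0-UMI barcodes the relative ratios had the same sign for all 10, from 0.58 for Gm42418 to 1.63 for Apol7e and from -2.94 for Il17f to -1.21 for Isg15. The Il17f ratio rests on the 2 brain barcodes named above. Of 20 immediate early and heat shock genes, 14 were lower and 1 higher in spinal cord members (relative median -0.71), and in 0-UMI barcodes the relative median was -0.99. Of 19 TCR-response factors, 3 were lower and 1 higher, and of 18 effector cytokines 7 were lower and none higher.

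Day 50 gave 2 further libraries that the rule did not use to choose genes, with 26 barcodes past the same threshold of 348 in brain and 69 of 1620 in spinal cord. Thinning left out 98 shallower barcodes in brain and 127 in spinal cord. After thinning, the share past the rule was 4.0% (1.93 to 7.23) in brain and 2.68% (1.92 to 3.63) in spinal cord, below the day 14 shares of 7.45% and 13.5%. The brain intervals of the 2 days overlapped, and the spinal cord intervals did not. The intervals cover counting error only, and with 1 library each, day and library cannot be told apart. Nrgn again led, in 84.6% of the 26 and 82.6% of the 69.

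Of the 186 genes higher in both tissues at day 14, 181 could be compared in brain at day 50, and 137 (75.7%) were at least 1.5-fold higher there, as were 148 of 186 (79.6%) in spinal cord, beside 32.5% and 31.5% of all genes compared. Of the 110 lower genes, 84 (76.4%) and 89 (80.9%) were lower, beside 19.8% and 15.4%. The shares of all genes cover 6696 genes in brain and 9906 in spinal cord, also genes with few UMIs. The 186 and 110 had been picked at 50 CPM or more at day 14. No share for genes of like level is given, so these percentages are not a like comparison. The all-gene median log2 ratio at day 50 was 0.18 and 0.22. Lag3 was at 228 against 13.5 CPM in brain and 276 against 9.74 CPM in spinal cord, and Igfbp7 at 480.0 against 10.4 CPM and 298 against 6.93 CPM. Il17a was at 1814 against 267 CPM and 416 against 87.5 CPM. Klf2 was at 8.14 against 490.4 CPM and 12.2 against 115 CPM, from 1 and 4 UMIs in members.

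Other genes differed at day 50. Ifng was at 260.3 against 315 CPM in brain and 279 against 316 CPM in spinal cord, log2 ratios of -0.28 (-0.85 to 0.25) and -0.18 (-0.49 to 0.13), where at day 14 they were 1.94 and 1.77. Tnf was at 81.4 against 106 CPM and 85.1 against 68.4 CPM. Ccl1 was at 2448 against 5.62 CPM in spinal cord, with a UMI in 16 of the 69 barcodes, whereas in brain all 153 Ccl1 UMIs came from 1 of the 26. Xcl1 was already high without the rule genes, at 101 CPM in brain and 218 CPM in spinal cord, against 56.9 and 857 CPM in the barcodes past the rule. Whether these ratios differ between days was not tested. CD69 protein had a median of 6 against 1 in brain and 10 against 4 in spinal cord, and CXCR6 of 3 against 3 and 8 against 10.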

How the data were processed

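Droplet-based 3′ RNA libraries with antibody tags were counted with Cell Ranger 6.1.1 against mm10, per the submitters' processing notes. The deposited files hold counts, whole UMIs per gene or antibody and barcode, with no normalization by the authors that the file headers record. The filter on cells asked for 500 or more detected genes and no more than 10% of UMIs from mitochondrial genes. Doublets were not called. UMIs were summed over members and over 0-UMI barcodes of each library and divided by all UMIs of the sum (CPM). A gene with at least 10 UMIs over both sums was compared. The median of a gene list was taken over its genes compared in that library, also where counts are given for genes compared in both. Ratios carry exact conditional binomial intervals, levels exact Poisson intervals and shares Clopper-Pearson intervals, all at 95%, and all cover counting error only. Cells of 1 library are not replicates, so no p-value was computed. The depth-weighted reference weighted 0-UMI barcodes in 10 bands of total UMIs. Thinning drew the same number of UMIs from each barcode and left out barcodes with fewer. Antibodies were taken by their feature identifiers (CD69, P2X7R, CXCR6), which differ from the feature names for 2 of the 3. The members and the 28 gene lists were chosen with earlier results of these data known. Genes named by rule were the 15 highest and 10 lowest at 50 CPM or more in both tissues, up to 4 per list and 5 tissue genes per direction. Other genes were named after their values were seen, and some genes are not reported here. The alternatives were other thresholds, rules lacking 1 gene, thinning, other filters and barcodes left out. Python 3.11.15, numpy 2.4.6, scipy 1.17.1, pandas 2.3.3 and matplotlib 3.10.9 were used.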

Additional observations from a re-analysis of the deposited data

Results flagged for a closer look

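For 4 results the log2 ratio of members to 0-UMI barcodes had opposite signs in brain and spinal cord at day 14 and passed 1.5-fold in at least 1 of them, and the difference between tissues was not tested. Cd79b, a B cell receptor gene, was at 0.079 in brain and -1.09 in spinal cord, from 8 and 6 UMIs in members. Gm42418, which overlaps ribosomal RNA, was at -0.19 and 0.68. The median of the regulatory T cell list was -0.65 and 0.26. The median of the microglia list was 1.38 and -0.21.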

How the results depend on the processing

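Of 216 named gene values past 1.5-fold, 207 kept their direction and 195 stayed past 1.5-fold against depth-weighted barcodes, 208 of 214 and 190 after thinning before the rule, and 215 and 200 with the rule lacking Nrgn. Leaving out barcodes shared between libraries, chosen after seeing the data, left all 216 past 1.5-fold in the same direction. The counts of genes moved with the UMI filter: at 50 UMIs 1352 were higher and 1046 lower in brain and 1201 and 901 in spinal cord, and at 1 UMI 5245 were higher in brain, 4318 in spinal cord and 2627 in both. Against depth-weighted barcodes 985 were higher and 709 lower in both. The split in brain between higher and lower genes was 1577 and 1911 without the 2 richest barcodes per gene.

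Among gene values past 1.5-fold whose interval excluded equal levels, and list medians past 1.5-fold, signs changed as follows. The causes were not tested. Against depth-weighted barcodes the brain log2 ratio was -0.36 for Ccnb1, -0.19 for Ccnb2, -0.30 for Cenpe, -0.20 for Cenpf, -0.29 for Psat1, -0.32 for Ube2c and -0.20 for the proliferation list, and the spinal cord value was -0.21 for Ccnb1, -0.26 for Cenpe, -0.46 for Cenpf and -0.27 for the list. The brain median of the inhibitory receptor list was -0.0082 at 5 or more rule UMIs, -0.11 without Egr2, -0.069 without Tnfrsf9, -0.083 at 50 UMIs and -0.15 without the 2 richest barcodes. That of the regulatory T cell list was 0.089 at 5 or more UMIs, 0.28 after thinning, 0.011 without Nrgn and 0.73 at 1 UMI, where the B cell list was at 0.53. Il17f in brain was at -1.80 after thinning, -4.33 without Tnfrsf9, -1.22 without the 5% of barcodes with most UMIs and -1.96 without the 2 richest. After thinning Gzmc was at -0.11 and Il22 at -0.36 in brain and Il10 at 0.46 and Rnf128 at -0.71 in spinal cord. Without Tnfrsf9, Il22 in brain was at -0.13. Without Nrgn, Ube2c in brain was at -0.050. Without cycling barcodes Cenpe in brain was at -0.18 and Cenpf in spinal cord at -0.011.

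The share past the rule followed depth and threshold. For brain and spinal cord at day 14 and then at day 50 it was 4.04%, 8.08%, 1.46% and 1.31% at 1000 UMIs and 10.3%, 17.7%, 8.0% and 4.09% at 2 or more rule UMIs. At 3000 UMIs it was 11.1% and 17.3% at day 14, among the 7092 and 8637 barcodes that had as many. At 5 or more rule UMIs it was 4.51% and 8.60% at day 14, and 1.41% for the later spinal cord library. The ratio of protein medians in brain and spinal cord was 2.0 and 2.38 for CD69, 1.20 and 1.38 for P2X7R and 1.15 and 1.10 for CXCR6. Depth-weighted it was 1.60 and 1.90, 1.0 and 0.917, and 0.714 and 0.885, and as a share of the 3 antibodies 1.59 and 1.41, 0.976 and 1.03, and 0.838 and 0.774. No paired analysis was possible because each tissue and day is a single library, and for the same reason no replicate could be left out.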
